A study of Homo sapiens with 5 samples.

Results

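The enzymes described here are 33 human genes that encode histone lysine methyltransferases and demethylases, leaving out the main enzymes of H3K36 and Polycomb. They were taken by symbol from the 26364 genes of the table of normalized counts, and all 33 are listed, 3 of them under an older symbol (SETD8, SUV420H1 and SUV420H2, now KMT5A, KMT5B and KMT5C). They form 8 groups, by the lysine and by whether methyl groups are placed or removed, with a last group of SET proteins that have other substrates. In that group SETMAR, SETD3 and SMYD2 have also been described as H3K36 methyltransferases and were kept. The mRNA-seq was done on growing IMR-90 cells, which are primary fibroblasts of human lung that divide for a limited time, at 24 hr after siRNA transfection. Of the 5 libraries, 2 were replicates of Ctr-KD cells, which received a control siRNA. The other 3 were NSD2-KD cells, which received NSD2-1, NSD2-2 or NSD2-3, different siRNAs against the H3K36 methyltransferase NSD2. Since each siRNA has 1 library, the effect of an siRNA and the spread between cultures cannot be told apart, and the cell line is the sole one measured.

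Lysine methylation marks chromatin according to the residue and the number of methyl groups. H3K4 methylation lies at active promoters and enhancers and is written by the SETD1 and MLL (KMT2) proteins within COMPASS complexes, and it is removed by the KDM1 and KDM5 demethylases. H3K9 methylation marks heterochromatin and silent genes, is written by SUV39H, SETDB and EHMT enzymes and is read by HP1 proteins. H4K20 methylation is linked to chromatin compaction and the cell cycle, H3K79 methylation to transcribed gene bodies, and the KDM6 demethylases take methyl groups off H3K27, the residue that Polycomb methylates. In fibroblasts, several of these marks are known to be redistributed when the cells become senescent.

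The libraries held 2473691 to 2845063 reads on genes. NSD2, listed as WHSC1, had normalized counts of 463 and 443 in the Ctr-KD libraries and 90.2, 81.9 and 87.9 in the NSD2-KD libraries, which is 18.1% to 19.9% of the Ctr-KD mean. The 9 fibroblast markers summed to 202230 to 228130 normalized counts per library. Of 5 leukocyte markers 4 were at 0 in every library, and of 4 endothelial markers PECAM1 and CDH5 were. The 5 epithelial markers summed to 159 to 162 in Ctr-KD and 149.7 to 265 in NSD2-KD libraries, nearly all from KRT8 and KRT18, with EPCAM, CDH1 and KRT19 at 3 reads or fewer. The 3 smooth muscle markers summed to 385 to 386 in Ctr-KD and 331 to 351 in NSD2-KD libraries, mainly from CNN1. Between the Ctr-KD replicates, the chi-square of the reads per degree of freedom was 1.05 over 12373 genes, and between all other pairs of libraries it was 3.87 to 5.29. The supporting procedures call the libraries biological replicates, without saying how the cultures were separated.

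At 24 hr after loss of NSD2, none of these enzymes passed the test, and most estimates lay near 0. The question was whether depletion of an H3K36 methyltransferase is accompanied by a shift in the enzymes of other lysines. Of the 33 genes, 32 had a mean normalized count of at least 10 and were tested with limma on log2(normalized count + 1), a scale that understates changes of low genes. EHMT2 was not tested. An adjusted p under 0.05 was reached by 0 of the 32, where 10 of all 11313 tested genes did (0.0884%). Their median log2 difference was 0.00, with 15 negative and 17 positive values, beside -0.01 over all tested genes. For 26 of 32 enzymes (81.2%) the difference lay within 0.3 on the log2 scale, compared with 75.5% of all tested genes.

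At an unadjusted p under 0.05, SUV39H1 was lower and KMT2E was higher in limma, that is 1 of 32 in each direction, where 4.99% (lower) and 4.19% (higher) of all tested genes reached this level. Both edgeR's quasi-likelihood test and DESeq2 also gave 0 enzymes past the adjusted threshold, although DESeq2 gave an adjusted p to 29 of the 32 only. Counting libraries without a fit, 6 enzymes (SUV39H1, KDM3A, KMT2A, KDM1A, SETD3 and SMYD2) had all 3 siRNAs below both controls, or 18.8% against 13.9% of all tested genes. In the other direction, 4 enzymes (KMT2E, KDM5B, PHF8 and SETD8) had all 3 above, or 12.5% against 13.8%. Both shares are near the background of all genes. For 1 gene, 2 against 3 libraries allow an exact permutation p of 0.1 at the lowest. Without the NSD2-1 library these counts were 12 and 9, and without Ctr-KD replicate 1 they were 10 and 8, since fewer libraries then have to separate. In bulk RNA, a lower level in every cell and fewer cells of the type that expresses a gene cannot be told apart.

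The width of the intervals bounds what could be seen, and it holds both counting error and the spread between siRNAs. The 32 tested enzymes had 69 (SUV420H2) to 3001 (KMT2D) reads over all 5 libraries. For the 19 with a mean of at least 100 normalized counts, the 95% interval of the log2 difference reached 0.26 to 0.49 to either side, and for the other 13 it reached 0.34 to 0.94. In all, 28 of the 32 intervals lay between -1 and 1, that is, within a doubling or a halving. The other 4 were those of SUV39H1, SUV39H2, SMYD3 and SETMAR, which had 151, 108, 142 and 109 reads in all.

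**Figure D1:**
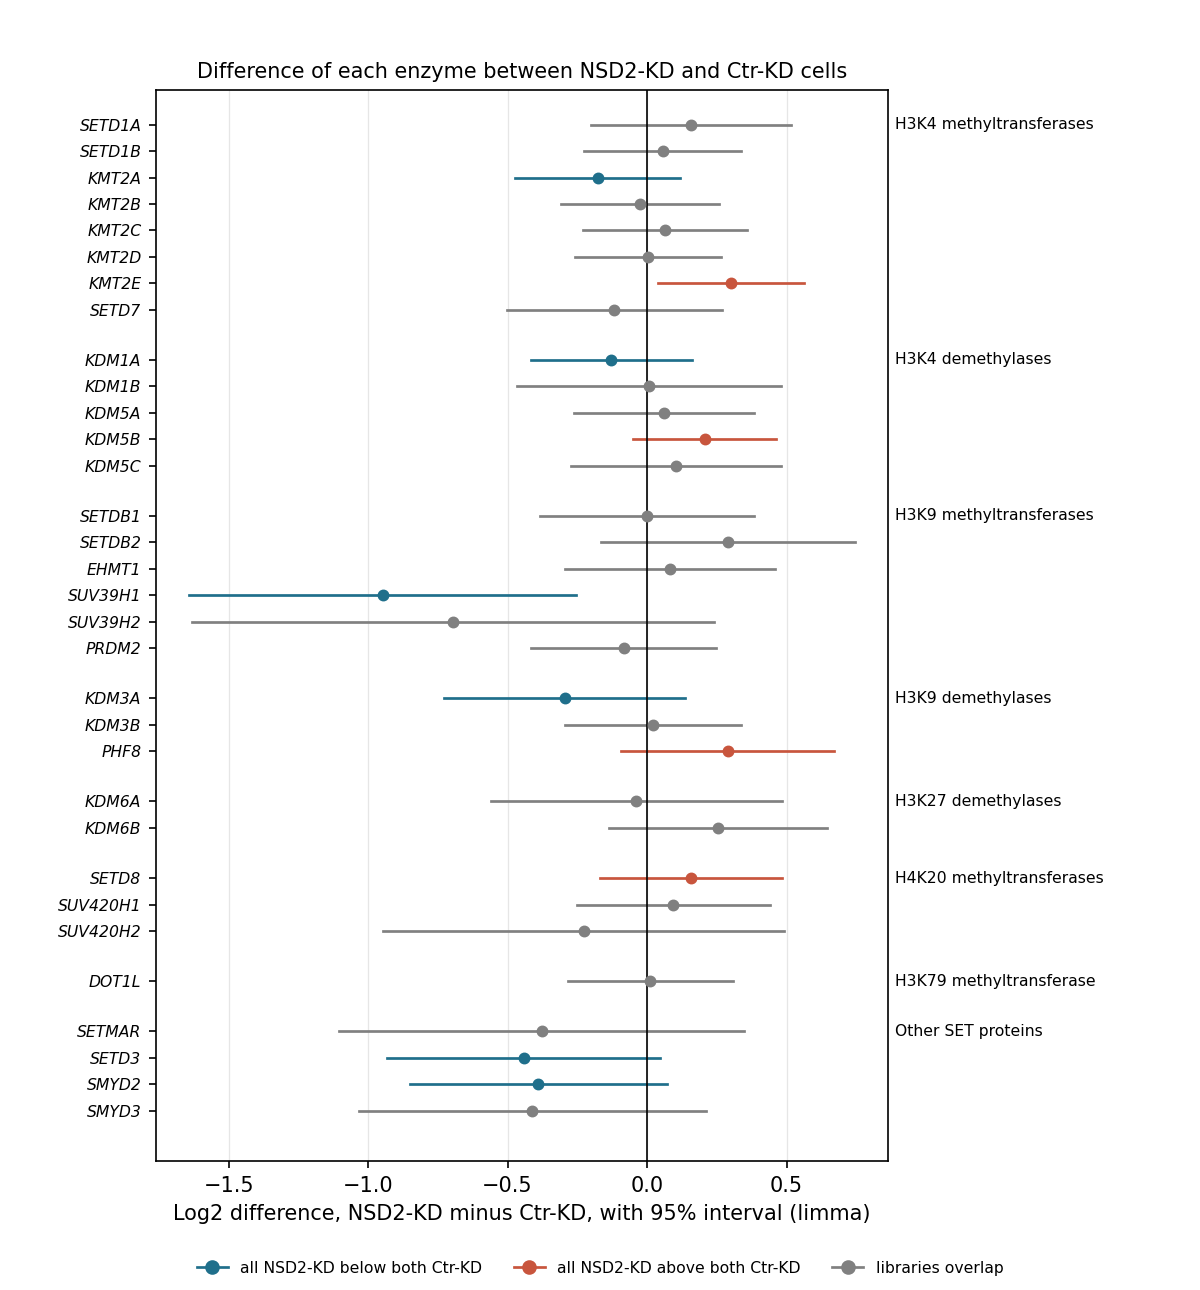
Log2 difference (x axis, NSD2-KD minus Ctr-KD, on log2(normalized count + 1)) of the 32 tested enzymes (y axis, grouped by lysine), with points for the limma estimate and lines for its 95% interval. Colours mark enzymes whose 3 NSD2-KD libraries all lie below (6) or above (4) both Ctr-KD libraries. SUV39H1 and KMT2E are the enzymes whose interval does not reach 0.

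Of all the enzymes, those with the largest negative estimates were both copies of the heterochromatin methyltransferase, SUV39H1 and SUV39H2, which trimethylate H3K9 at pericentric repeats. SUV39H1, on chromosome X from 48553945 to 48567407 (GRCh37, the assembly of hg19), had normalized counts of 39.1 and 44.2 in the Ctr-KD libraries and 24.8, 14.2 and 26.4 in the NSD2-KD libraries, or 41.6 ± 3.66 (SD, n = 2) against 21.8 ± 6.62 (SD, n = 3). All 3 NSD2-KD libraries were below both Ctr-KD libraries, and NSD2-2 was the lowest. With NSD2-1, NSD2-2 and NSD2-3 the level was 59.7%, 34.1% and 63.3% of the Ctr-KD mean. Its log2 difference was -0.95 (standard error 0.30, 95% interval -1.64 to -0.25, limma adjusted p = 0.382). Its unadjusted p was 0.0134 in limma, 0.00919 in edgeR and 0.0257 in DESeq2. Leaving out NSD2-2 gave a log2 difference of -0.68, the smallest among the alternatives. Exons of a long noncoding RNA overlap SUV39H1 on the opposite strand, and the library kit does not keep the strand, so reads of the pair cannot be told apart.

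SUV39H2, on chromosome 10 from 14920819 to 14946314, had 28.6 and 24.7 in Ctr-KD cells and 24.8, 8.74 and 18.5 in NSD2-KD cells, or 26.6 ± 2.75 (SD, n = 2) against 17.4 ± 8.12 (SD, n = 3) normalized counts. Here the groups overlapped, because NSD2-1 (24.8) lay just above Ctr-KD replicate 2 (24.7), while NSD2-2 was again the lowest. The log2 difference was -0.70 (standard error 0.41, 95% interval -1.63 to 0.24, limma adjusted p = 0.671), and without NSD2-2 it was -0.29. SUV39H2 falls outside the rule for named enzymes and was picked for its values. Exons of DCLRE1C, a nuclease gene, overlap it on the opposite strand, and the log2 difference of DCLRE1C was -0.17.

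The 20 cell cycle genes listed beside them (DNA replication and mitosis genes such as MCM2, RRM2 and CDK1) summed to 5646 and 5803 normalized counts in Ctr-KD and 2992, 2056 and 2926 in NSD2-KD libraries. That is 52.3%, 35.9% and 51.1% of the Ctr-KD mean with NSD2-1, NSD2-2 and NSD2-3. NSD2-2, the lowest library in SUV39H1 and SUV39H2, was thus also the lowest in this sum. It also had the fewest reads on genes of the 5 libraries (2473691). All 20 cell cycle genes had a negative log2 difference (median -1.09), and 1 of them (RRM2) passed the adjusted threshold. In 19 of them all siRNAs lay below both controls (13.9% of all tested genes). The 3 genes with the largest difference were MKI67, a marker of cycling cells, at -2.05 (limma adjusted p = 0.259), RRM2, a subunit of ribonucleotide reductase, at -1.67 (limma adjusted p = 0.00228), and the mitotic kinase AURKB at -1.45 (limma adjusted p = 0.201). Of these 3, AURKB was lowest with NSD2-2, MKI67 with NSD2-3 and RRM2 with NSD2-1. RRM2 was not past the threshold without either Ctr-KD library or without limma's trend. The part of cell division in the SUV39H values was not tested.

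**Figure D2:**
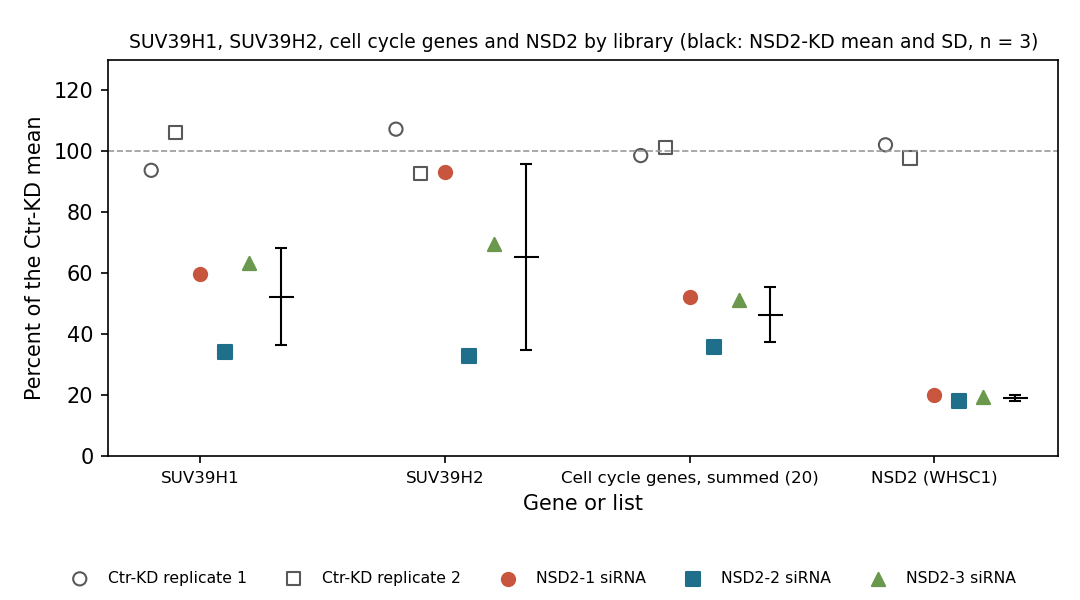
Level in each library as a percentage of the Ctr-KD mean (y axis) of SUV39H1, SUV39H2, the sum of the 20 cell cycle genes and NSD2 (x axis). Open symbols are the 2 Ctr-KD libraries, filled symbols the 3 siRNAs, and the black bar is the NSD2-KD mean with its SD (n = 3). NSD2-2 is the lowest of the 3 siRNAs in each column.

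The promoters of SUV39H1 and SUV39H2 are shown because these paralogs had the largest estimates, with those of SETD8, an H4K20 enzyme known to be regulated through the cell cycle, and KMT2E, the enzyme with a positive interval, for comparison. Each stretch runs from 220 bases before to 30 after the start of the GENCODE canonical transcript on GRCh37. Capitals mark matches to CCAAT (the NF-Y box) and to TTTGAA or TTCGAA (the cell cycle homology region), sought on both strands, which were the motifs found in these stretches.
SUV39H1, chrX:48554905-48555154, plus strand: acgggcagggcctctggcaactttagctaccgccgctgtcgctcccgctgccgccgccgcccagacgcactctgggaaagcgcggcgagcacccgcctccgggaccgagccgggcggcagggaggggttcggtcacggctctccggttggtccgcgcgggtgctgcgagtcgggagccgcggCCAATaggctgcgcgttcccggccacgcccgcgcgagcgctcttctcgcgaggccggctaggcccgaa
SUV39H2, chr10:14920645-14920894, plus strand: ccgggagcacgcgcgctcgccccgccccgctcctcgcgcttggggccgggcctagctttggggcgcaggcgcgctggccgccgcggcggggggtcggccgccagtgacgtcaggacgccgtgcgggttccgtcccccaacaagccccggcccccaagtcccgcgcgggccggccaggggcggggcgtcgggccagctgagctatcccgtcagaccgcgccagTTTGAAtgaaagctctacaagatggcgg
SETD8, chr12:123868459-123868708, plus strand: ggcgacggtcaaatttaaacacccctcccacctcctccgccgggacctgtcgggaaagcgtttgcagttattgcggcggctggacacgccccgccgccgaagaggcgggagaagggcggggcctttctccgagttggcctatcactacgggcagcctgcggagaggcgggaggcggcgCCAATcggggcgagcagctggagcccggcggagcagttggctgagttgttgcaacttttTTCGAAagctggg
KMT2E, chr7:104654432-104654681, plus strand: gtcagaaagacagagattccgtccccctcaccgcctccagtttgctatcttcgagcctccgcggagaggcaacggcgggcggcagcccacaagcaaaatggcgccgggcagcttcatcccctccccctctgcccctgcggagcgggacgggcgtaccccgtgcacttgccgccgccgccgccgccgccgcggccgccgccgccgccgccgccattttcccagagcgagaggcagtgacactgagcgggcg

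SUV39H1 has a CCAAT box and SUV39H2 a TTTGAA next to its start, SETD8 has both kinds, and KMT2E has neither. The search covered 250 bases before to 50 after the start. In such windows CCAAT occurred in 11 of 32 tested enzymes (34.4%) and in 3971 of the 11044 promoters of all tested genes (35.96%). TTTGAA or TTCGAA occurred in 3 (9.38% against 10.5%). An E2F site, spelled TTTCCCGC, TTTGGCGC, TTTCGCGC or TTTGCCGC on either strand, occurred in 2 enzymes, KDM1B and SETMAR (6.25% against 5.53%). None of the motifs overlaps another in the stretches shown, and a match is a run of letters, not a measured binding site.

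Of the 6 tested H3K9 methyltransferases, 4 had negative and 2 positive estimates (median -0.04), and those other than SUV39H1 and SUV39H2 lay nearer to 0. SETDB1, which silences retroelements together with TRIM28, had normalized counts of 74.3 and 89.5 in the Ctr-KD libraries and 81.0, 75.4 and 88.8 in the NSD2-KD libraries, with the groups interleaved. For its relative SETDB2 they were 61.9 and 45.3 in Ctr-KD cells and 60.7, 71.0 and 63.5 in NSD2-KD cells, and Ctr-KD replicate 2 stood low. EHMT1, which dimethylates H3K9 in euchromatin, had 178 and 187 in Ctr-KD cells and 157, 215 and 214 in NSD2-KD cells, so that NSD2-1 was below and the other siRNAs above the control. In PRDM2, a PR domain protein that methylates H3K9, the counts were 106 and 116 in Ctr-KD cells and 101, 100.5 and 112 in NSD2-KD cells, all within a narrow band.

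EHMT2 (G9a), the partner of EHMT1 in H3K9 dimethylation, had 3 reads in the 5 libraries together, 1 in Ctr-KD replicate 1 and 2 with NSD2-2, so no level or change can be read for it. The gene lies on chromosome 6 from 31847536 to 31865475, within the major histocompatibility complex. Its neighbours shared this. Of 66 protein-coding genes within 500 kb, EHMT2 included, 63 (95.5%) had at most 3 reads in every library, compared with 72.2% of 158 genes between 500 kb and 4 Mb away and 35.7% of 18892 genes genome-wide. Among them were genes used by nearly every cell, such as BAG6 (at most 2 reads), CSNK2B (0 reads) and CLIC1 (at most 3 reads), chosen here after their values were seen. MICA, with up to 27 reads, had the most of the 66. The near absence of reads was thus shared by the region in these files, and its cause was not tested.

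**Figure D3:**
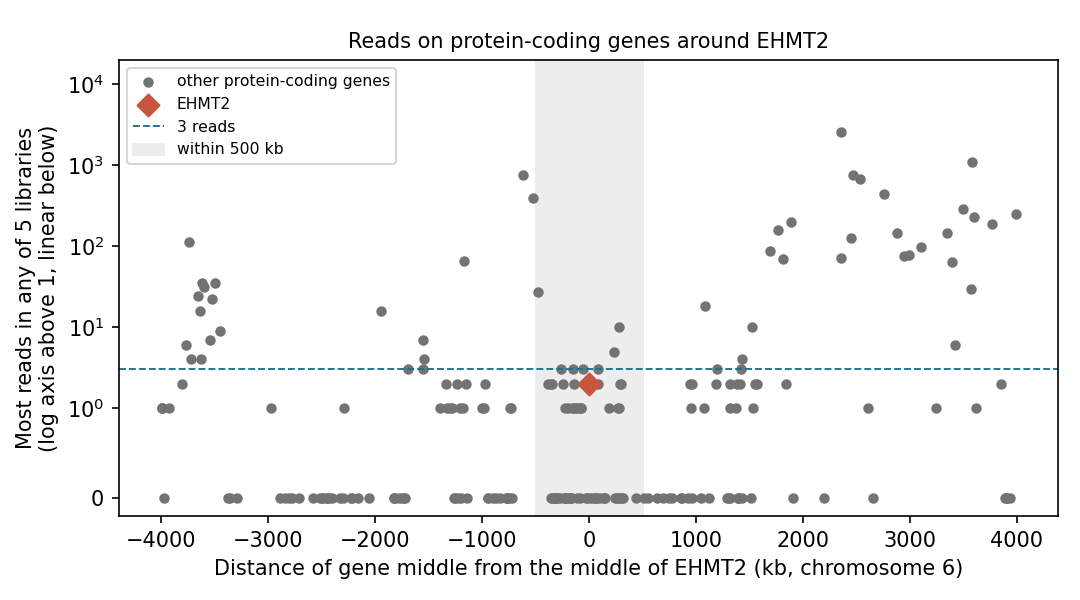
Highest read number in any of the 5 libraries (y axis, logarithmic above 1 read) of protein-coding genes on chromosome 6 against the distance of their middle from that of EHMT2 (x axis, kb). The dashed line is at 3 reads and the shaded band spans 500 kb to either side. Of the 66 genes with any part within 500 kb of EHMT2 (the middle of BTNL2 lies just beyond the band), 63 lie at or below the line, EHMT2 among them.

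The H3K9 demethylases differed in direction. KDM3A, which removes mono- and dimethyl groups, had normalized counts of 63.8 and 65.8 in the Ctr-KD libraries and 56.1, 57.9 and 44.9 in the NSD2-KD libraries, all NSD2-KD libraries below the control and NSD2-3 the lowest. Its log2 difference was -0.30 (standard error 0.19, 95% interval -0.73 to 0.14, limma adjusted p = 0.699). KDM3B had 232 and 209.9 in Ctr-KD cells and 256, 209 and 211 in NSD2-KD cells, with NSD2-1 above and the other siRNAs at the level of Ctr-KD replicate 2. PHF8, a JmjC demethylase of H3K9 and H4K20 that binds H3K4me3, had 76.2 and 71.0 in Ctr-KD cells and 91.1, 79.7 and 101 in NSD2-KD cells, all NSD2-KD libraries above the control, and its log2 difference was 0.29 (standard error 0.17, 95% interval -0.09 to 0.67, limma adjusted p = 0.665). Neither KDM3A nor PHF8 passed the test.

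Of the 8 H3K4 methyltransferases, 3 had negative and 5 positive estimates (median 0.03), and KMT2E was the one at an unadjusted p under 0.05. KMT2E (MLL5), a SET protein with little activity of its own that binds H3K4me3, lies on chromosome 7 from 104581390 to 104755466 and had 178 and 185 in the Ctr-KD libraries and 222, 227 and 223 in the NSD2-KD libraries, or 182 ± 4.97 (SD, n = 2) against 224 ± 2.94 (SD, n = 3). The 3 NSD2-KD libraries lay at 122%, 125% and 123% of the Ctr-KD mean, all above both controls and closer to each other than counting noise alone would on average give (chi-square per degree of freedom of 0.0372). Its log2 difference was 0.30 (standard error 0.11, 95% interval 0.04 to 0.56, limma adjusted p = 0.463), with an unadjusted p of 0.0292 in limma. Over the alternatives it ran from 0.27 to 0.33. Exons of 5 annotated genes overlap KMT2E, among them SRPK2 and KMT2E-AS1 on the opposite strand, and the log2 difference of SRPK2 was -0.20.

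The MLL proteins KMT2A and KMT2B, which methylate promoters, both gave small estimates. KMT2A had 320.1 and 341 in Ctr-KD cells and 306, 256 and 317 in NSD2-KD cells. All NSD2-KD libraries were lower, but NSD2-3 lay just under Ctr-KD replicate 1. Its log2 difference was -0.18 (standard error 0.13, 95% interval -0.47 to 0.12, limma adjusted p = 0.742). Without NSD2-2, the lowest library, it was -0.08. KMT2B had 191 and 188 in Ctr-KD cells and 198, 174 and 187 in NSD2-KD cells. KMT2C and KMT2D, which monomethylate enhancers, did not separate the groups. KMT2C had 209 and 206 in Ctr-KD cells and 240.2, 199 and 213 in NSD2-KD cells, and KMT2D, the enzyme with the most reads, had 599 and 589.5 in Ctr-KD cells and 526, 642 and 624 in NSD2-KD cells.

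SETD1A and SETD1B, the catalytic subunits behind most H3K4 trimethylation, did not separate the groups. SETD1A had 102 and 94.6 in Ctr-KD cells and 112, 97.2 and 121 in NSD2-KD cells, and SETD1B had 169 and 180.0 in Ctr-KD cells and 172, 181 and 190.3 in NSD2-KD cells. In SETD7, which monomethylates H3K4 and many other proteins, the counts were 444 and 406 in Ctr-KD cells and 434, 448 and 308 in NSD2-KD cells. There NSD2-3 alone was low, at 72.6% of the Ctr-KD mean. As a sum of counts per kilobase of transcript, the 8 H3K4 methyltransferases came to 208 and 204 in the Ctr-KD libraries and 213, 211 and 200.4 in the NSD2-KD libraries, which overlap.

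Of the 5 H3K4 demethylases, 1 had a negative and 4 a positive estimate (median 0.06). The flavin-dependent KDM1A (LSD1), on chromosome 1 from 23345936 to 23410182, had 260.1 and 264 in the Ctr-KD libraries and 214, 259 and 249 in the NSD2-KD libraries. All NSD2-KD libraries were lower, although NSD2-2 lay just under Ctr-KD replicate 1, and its log2 difference was -0.13 (standard error 0.13, 95% interval -0.42 to 0.16, limma adjusted p = 0.818). Without NSD2-1, the lowest library, it was -0.05. Its relative KDM1B had 45.7 and 52.5 in Ctr-KD cells and 43.2, 47.0 and 58.6 in NSD2-KD cells, which overlap. The JmjC enzyme KDM5B, which removes H3K4me3, had 274 and 301 in Ctr-KD cells and 351, 318 and 328 in NSD2-KD cells, all NSD2-KD libraries being higher, and its log2 difference was 0.21 (standard error 0.11, 95% interval -0.05 to 0.46, limma adjusted p = 0.634). KDM5A had 229 and 216 in Ctr-KD cells and 269.6, 209 and 222 in NSD2-KD cells, with NSD2-1 alone above the control.

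KDM5C, an X-linked member of the same family, had the largest chi-square between siRNAs relative to counting noise. It had 580.2 and 536 normalized counts in Ctr-KD cells and 669.9, 681 and 471 in NSD2-KD cells. NSD2-1 and NSD2-2 lay above both controls and NSD2-3 below both, at 120.0%, 122% and 84.5% of the Ctr-KD mean. The 95% Poisson intervals of the counts, which cover counting error only, were 622 to 720.4 with NSD2-1, 628 to 736 with NSD2-2 and 430.4 to 515 with NSD2-3. In counts per kilobase, the 5 H3K4 demethylases together came to 245 and 242 in the Ctr-KD libraries and 257, 265 and 231 in the NSD2-KD libraries, which overlap.

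The H3K27 demethylases gave overlapping groups, which shows in the wide spread of the siRNAs. KDM6A (UTX), a subunit of the KMT2C and KMT2D complexes, had 67.6 and 74.1 in Ctr-KD cells and 92.0, 56.8 and 62.5 in NSD2-KD cells, and KDM6B (JMJD3), an inducible enzyme, had 136 and 120.4 in Ctr-KD cells and 166, 172 and 126 in NSD2-KD cells. NSD2-1 was above both controls in both genes, NSD2-2 was above them in KDM6B and below them in KDM6A.

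The H4K20 methyltransferases act in sequence, SETD8 placing the monomethyl mark that SUV420H1 and SUV420H2 extend. SETD8, on chromosome 12 from 123868679 to 123893900, had 106 and 107 in the Ctr-KD libraries and 129.7, 115 and 112 in the NSD2-KD libraries, so that all NSD2-KD libraries were above the control by a small amount. Its log2 difference was 0.16 (standard error 0.14, 95% interval -0.17 to 0.48, limma adjusted p = 0.800). SUV420H1 had 98.1 and 87.4 in Ctr-KD cells and 92.0, 103 and 102 in NSD2-KD cells, and SUV420H2, the tested enzyme with the fewest reads, had 13.3 and 16.5 in Ctr-KD cells and 15.6, 9.83 and 12.7 in NSD2-KD cells. Neither of them separated the groups. Summed per kilobase the 3 enzymes came to 61.1 and 61.0 in the Ctr-KD libraries and 69.7, 63.6 and 63.9 in the NSD2-KD libraries, with every NSD2-KD library above both controls.

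DOT1L, the enzyme of H3K79, had normalized counts of 218 and 206 in Ctr-KD cells and 238, 202 and 202 in NSD2-KD cells. Only NSD2-1 was above the control, and the others lay just below Ctr-KD replicate 2.

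The 4 SET proteins with substrates beyond a histone lysine all had negative estimates, with a median log2 difference of -0.40. SETD3, which methylates a histidine of actin, lies on chromosome 14 from 99864085 to 99947226 and had 131 and 132 in the Ctr-KD libraries and 71.8, 114 and 110.3 in the NSD2-KD libraries, or 132 ± 0.154 (SD, n = 2) against 98.6 ± 23.3 (SD, n = 3). The Ctr-KD libraries were nearly equal, closer than counting noise alone would on average give (chi-square per degree of freedom of 1.83e-04). All siRNAs lay below them, and NSD2-1 was the lowest at 54.5%, with a 95% Poisson interval of 56.7 to 89.6 counts. The intervals of NSD2-2 (92.8 to 138) and NSD2-3 (90.9 to 133) held both Ctr-KD values. The log2 difference of SETD3 was -0.44 (standard error 0.21, 95% interval -0.93 to 0.05, limma adjusted p = 0.592), and without NSD2-1 it was -0.23.

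SMYD2, a methyltransferase of p53 and of histones, had 66.7 and 88.5 in Ctr-KD cells and 66.3, 51.3 and 58.6 in NSD2-KD cells. NSD2-1 lay just under Ctr-KD replicate 1, and the log2 difference was -0.39 (standard error 0.20, 95% interval -0.85 to 0.07, limma adjusted p = 0.616). Without Ctr-KD replicate 2, the higher of the controls, it was -0.19. SMYD3, whose substrates include a MAP kinase kinase kinase, had 34.3 and 30.9 in Ctr-KD cells and 31.3, 18.6 and 24.4 in NSD2-KD cells, and SETMAR, a fusion of a SET domain with a transposase, had 21.0 and 28.8 in Ctr-KD cells and 22.1, 13.1 and 22.5 in NSD2-KD cells. SMYD3 overlapped the control through NSD2-1, SETMAR through NSD2-1 and NSD2-3, and NSD2-2 was the lowest in both. As a sum per kilobase the 4 came to 116 and 130.4 in the Ctr-KD libraries and 93.7, 87.4 and 98.6 in the NSD2-KD libraries, or 123 ± 10.0 (SD, n = 2) against 93.2 ± 5.62 (SD, n = 3), without overlap. Among the 8 groups, this group of 4 and the H4K20 enzymes were those of which this held, and no test was made of the sums. Of all single genes tested, 13.9% lay wholly below and 13.8% wholly above both controls, so such a separation is common.

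**Figure D4:**
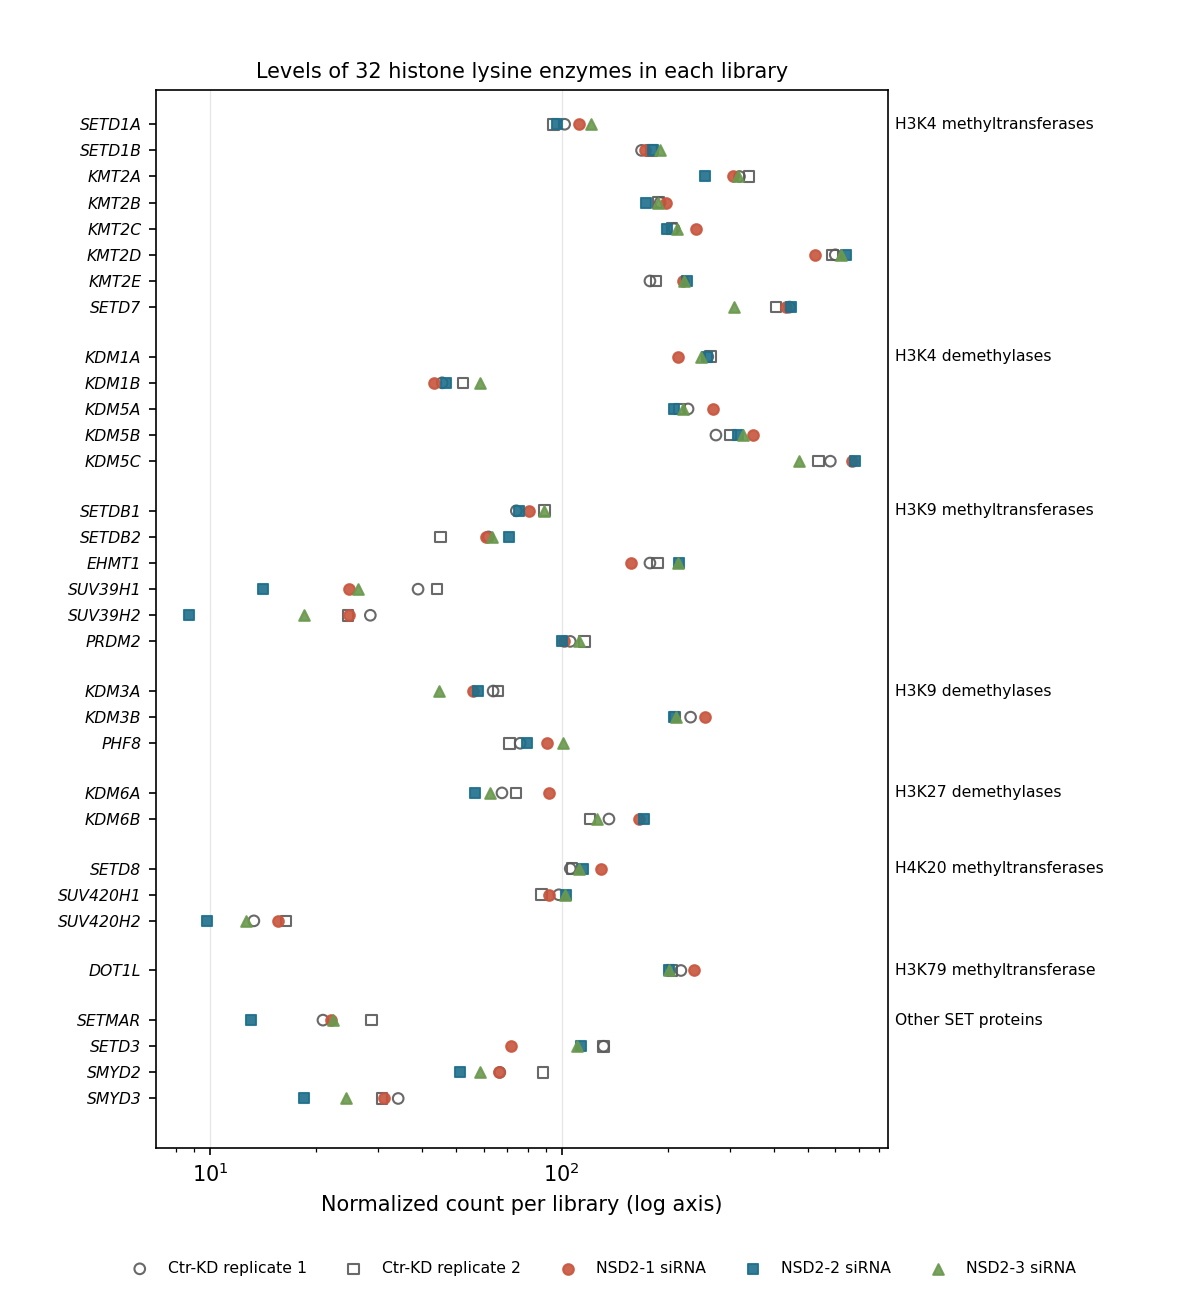
Normalized count of each tested enzyme in each library (x axis, logarithmic), with enzymes on the y axis grouped by lysine. Open symbols are the 2 Ctr-KD libraries and filled symbols the 3 siRNAs. For most enzymes the 5 symbols lie together, while SUV39H1, SUV39H2, SETMAR, SETD3 and SMYD3 have at least 1 NSD2-KD library well to the left.

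Some enzymes differed between the siRNAs by more than counting noise. The chi-square of the 3 NSD2-KD libraries per degree of freedom, whose mean (not its median) is near 1 for counting noise alone, had a median of 1.49 over the tested enzymes and 1.71 over all tested genes. It was above 3 for 11 of 32 enzymes (34.4%, 33.6% of all tested genes), led by KDM5C (23.2) and SETD7 (15.04), in both of which NSD2-3 was the low library. KMT2D (6.74), EHMT1 (5.86) and SETD3 (5.77) came next, and in these NSD2-1 was the low one. At an equal relative spread this chi-square grows with the number of reads. KMT2D, KDM5C and SETD7 had the most reads of the enzymes (3001, 2964 and 2059 over the 5 libraries). The order is thus not one of relative spread, which was larger in SUV39H2 (17.4 ± 8.12, SD, n = 3) than in KDM5C (607 ± 118, SD, n = 3). Of the 3 NSD2-KD libraries, NSD2-2 was the lowest in 17 enzymes, NSD2-1 in 9 and NSD2-3 in 6. The shares over all tested genes were not counted, so these numbers cannot be read as a trait of the enzymes. The median log2 difference from Ctr-KD was 0.01, -0.06 and -0.02 with NSD2-1, NSD2-2 and NSD2-3.

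**Figure D5:**
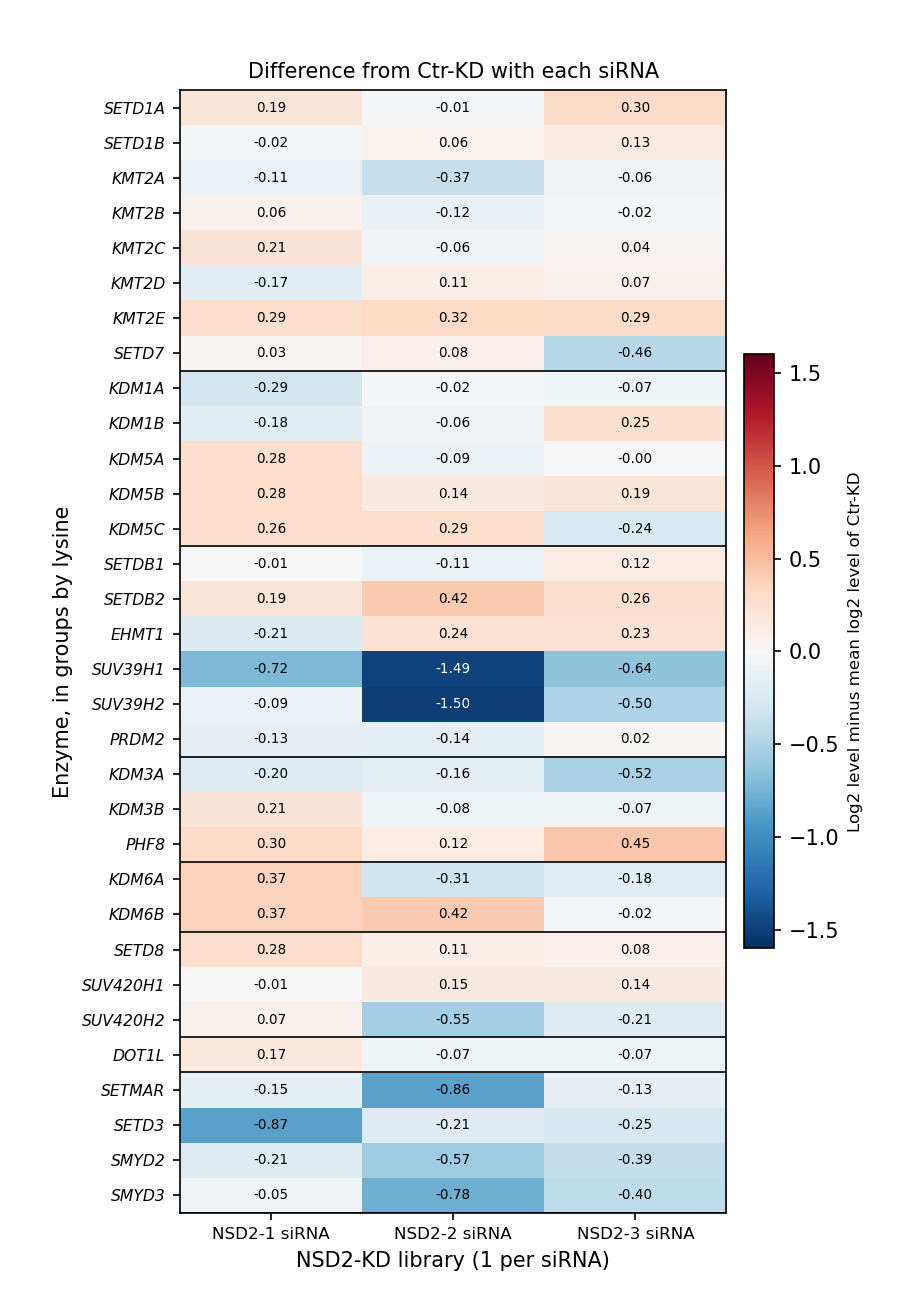
Log2(normalized count + 1) in each NSD2-KD library minus the mean of the Ctr-KD libraries, for the 32 tested enzymes (y axis) and the 3 siRNAs (x axis, 1 library each). Blue is lower and red is higher. SUV39H1 and SUV39H2 are darkest with NSD2-2 (-1.49 and -1.50), SETD3 with NSD2-1 (-0.87), and KMT2E has nearly the same value with all 3 (0.29 to 0.32).

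Levels of different genes were compared per kilobase of the GENCODE canonical transcript, in the Ctr-KD mean. The transcripts counted by the authors may differ in length, so small differences carry no weight. KDM5C (96.1 normalized counts per kilobase) and KDM1A (85.0) were the highest. SETD7 (62.5), SETD3 (46.1), SMYD2 (44.5) and SETD8 (38.3) followed. A middle range from 35.9 to 16.4 held, from high to low, EHMT1, KDM3B, KDM5B, KMT2D, DOT1L, KMT2E, KMT2B, SMYD3, KDM5A, SETD1B, KMT2A, KDM6B, SETDB1 and SETD1A, whose neighbours lay close together. Below it, from 16.2 to 10.8, came SUV420H1, PRDM2, SUV39H1, KDM3A, KMT2C, SETMAR, KDM6A, PHF8 and KDM1B. The lowest were SUV39H2 (8.71), SETDB2 (8.64) and SUV420H2 (6.52), apart from EHMT2.

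Within paralogous pairs the order of the levels per kilobase held in all 5 libraries for those compared. KDM1A was 6.25 to 8.37 times as high as KDM1B, KDM5C 3.92 to 6.01 times as high as KDM5A, and KDM3B 2.21 to 3.26 times as high as KDM3A. For KDM6B over KDM6A the ratio was 1.47 to 2.73, for SUV420H1 over SUV420H2 2.12 to 4.18 and for KMT2D over KMT2C 1.79 to 2.64. SUV39H1 was 1.12 to 2.00 times as high as SUV39H2. With NSD2-1 both had 27 reads, so the ratio of 1.12 came from the transcript lengths alone and that order carries no weight. SETD1A and SETD1B (ratio 0.751 to 0.932) and KMT2A and KMT2B (ratio 0.752 to 0.925) lay close to each other.

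Proteins that work with these enzymes were counted in the same fit, in lists written with earlier results of these data known. None of the genes in the 6 partner lists passed the adjusted threshold. Of 12 COMPASS and MLL subunits, 10 had a negative and 2 a positive estimate, with a median log2 difference of -0.14. PSIP1, which ties menin complexes to chromatin, was the subunit lower in all NSD2-KD libraries (187 and 182 against 157, 143 and 131 normalized counts), with a log2 difference of -0.36 (limma adjusted p = 0.456). For the CoREST partners of KDM1A, 9 of 10 were tested, 5 negative and 4 positive, with a median of -0.06. The scaffold RCOR1 had a log2 difference of -0.23 (limma adjusted p = 0.694), its partner HMG20B one of -0.35 (limma adjusted p = 0.516) and GSE1 one of 0.26 (limma adjusted p = 0.606).

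The 12 readers and partners of H3K9 methylation were evenly split (6 negative, 6 positive, median -0.03). TRIM28, the corepressor that recruits SETDB1, had a log2 difference of -0.15 (limma adjusted p = 0.736), the HUSH subunit PPHLN1 one of 0.16 (limma adjusted p = 0.798), and CDYL, a chromodomain protein, one of 0.35 (limma adjusted p = 0.505). All 6 DOT1L partners had negative estimates (median -0.05), of which AFF4, the scaffold of the super elongation complex, was the largest. AFF4 had 674 and 667 against 489, 419 and 525 normalized counts, without overlap, and a log2 difference of -0.49 (limma adjusted p = 0.263), while MLLT1 was at -0.04 (limma adjusted p = 0.944).

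Among 5 readers of H4K20 methylation, 4 were tested and all were negative, with a median log2 difference of -0.52. ORC1, the origin recognition subunit that binds H4K20me2, had 31.4 and 22.6 against 8.28, 4.37 and 12.7 normalized counts and a log2 difference of -1.65 (limma adjusted p = 0.267). The condensin II subunits NCAPD3 and NCAPG2 were at -0.62 (limma adjusted p = 0.390) and -0.42 (limma adjusted p = 0.501). These 3 also act in DNA replication or mitosis, and the summed cell cycle genes were low in the same libraries. Their part here was not tested. The 12 other SET, PRDM and JmjC proteins had a median of 0.03 (5 negative, 7 positive), with SMYD4 at -0.76 (limma adjusted p = 0.390), PRDM15 at -0.54 (limma adjusted p = 0.593) and the demethylase KDM7A at 0.36 (limma adjusted p = 0.716).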

How the data were processed

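Poly(A) RNA of 2 Ctr-KD and 3 NSD2-KD cultures was sequenced as single-end reads. After trimming by the authors, HISAT2 placed the reads on hg19, SAMtools retained the unique alignments, and featureCounts assigned them to genes. The annotation and strand setting are not given in the sources used here. The deposited signal is the count of each gene over a DESeq2 size factor per library. A second deposited table with the authors' own DESeq2 comparison (mean, log2 fold change, Wald statistic and p-values) was not used.

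Since 100% of the values were whole multiples of the value of 1 read (tolerance 0.001 reads), reads were recovered. The 11313 genes at a mean of 10 normalized counts or more entered limma 3.58.1 with its trend, on log2(normalized count + 1), with no covariates, two-sided and with Benjamini-Hochberg adjustment (threshold 0.05). edgeR 4.0.16 and DESeq2 1.42.0 were run on the recovered reads in R 4.3.3. The limma, edgeR, DESeq2 and limma-voom fits were tested on simulated counts with the same dispersion in both groups. Other settings were not simulated. Locations, transcript lengths and promoters are from GENCODE on GRCh37, which matched 21998 of 26362 distinct symbols. In this annotation, exons of 14 of the 33 enzymes overlap those of another gene. SUV39H1, KMT2E and KMT2A are those of them that were named for their difference.

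The enzymes and lists were chosen with earlier results of these data known. An enzyme was named for its difference where all NSD2-KD libraries lay beyond both Ctr-KD libraries, or where its p passed 0.05 unadjusted in limma or adjusted in any tool. In each partner list, up to 3 of the largest differences without overlap were named. SUV39H2, the enzymes singled out for their spread between siRNAs, and the genes around EHMT2 were chosen after their values were seen. The alternatives were pseudocounts of 0.5 and 5, no filter or a mean of at least 50, limma without the trend, quantile normalization, edgeR, DESeq2, limma-voom, a replicate block, and each library left out in turn. Poisson intervals cover counting error only.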

Additional observations from a re-analysis of the deposited data

How the results depend on the processing

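The number of enzymes past the threshold was 0 in each direction under all 15 alternatives. Over all tested genes, the counts of lower and higher calls (6 and 4 in the limma fit described) were 1 and 0 without the trend, 44 and 14 with DESeq2, and over the omission of single libraries they ran from 0 to 22 and from 0 to 8. edgeR called 11 lower, and quantile normalization gave 8 higher. When 1 library was left out, enzymes with all siRNAs below both controls numbered 6 to 12 and those above 6 to 9. Omitting a library can only keep or raise these counts. With quantile normalization they were 5 and 5, against 6 and 4 without it. The median log2 difference of the enzymes ran from -0.047 to 0.031 over the omission of single libraries. For the tools and the trend, the cause of the different counts was not tested. The log2 difference of SUV39H1 was -1.10 to -0.68 (adjusted p 0.180 to 1.00) over 14 alternatives (at a mean of at least 50 it was not tested), and that of KMT2E was 0.27 to 0.33 (adjusted p 0.389 to 1.00). No direction reversed, but all named genes except SUV39H2 had groups without overlap, so omitting a library could not reverse them. Only NSD2 and RRM2 passed in the limma fit described, so for the others keeping the call meant staying uncalled. Of 444 values of named genes under the alternatives, 434 kept their direction and call. NSD2 and RRM2 lost theirs without either Ctr-KD library, which leaves 1 control assumed to vary like the NSD2-KD libraries, and RRM2 also without the trend. MKI67 passed without NSD2-1 and AURKB with DESeq2.

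With the replicate number as a block, 84 genes were lower and 18 higher, none of them an enzyme, and MKI67, AURKB and ORC1 passed. The numbers do not pair the samples, as those of NSD2-KD are numbers of siRNAs, and deviations of samples with the same number correlated at -0.02 (number 1) and -0.03 (number 2).

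The intervals of enzymes with few reads are wide, reaching a log2 difference of -1.64 for SUV39H1 and -1.63 for SUV39H2, and EHMT2 could not be measured.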
